A study of Mus musculus and Homo sapiens with 9 samples.

Results

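The EOMES and cytotoxic effector genes comprised EOMES, TBX21, GZMA, GZMB, GZMK, GZMM, PRF1, NKG7, ZEB2 and CTSW, chosen as the rows of both count tables that carry these symbols. All 10 were found among the 56105 annotated rows of the J.gamma1 table and, in mouse case, among the 42462 annotated rows of the mouse table. After the filter on low counts, 8 of the 10 were among the 15819 genes tested in J.gamma1 cells, without GZMB and ZEB2, and 10 of 10 were among the 15350 genes tested in mouse T cells. The genes were named with the J.gamma1 comparison in view, in which EOMES was much higher after knockdown, so their values in J.gamma1 cells are given as a description. No p-value is given for them, and the calls that the fit over all genes made of them are counted only beside the share of all genes called. The mouse libraries come from other cells and from another comparison, and their values were tested. The genes were chosen with earlier results of these data known, and the mouse p-values do not allow for that choice.

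J.gamma1 cells derive from Jurkat, a line of T-cell acute lymphoblastic leukemia (T-ALL), and lack phospholipase C gamma 1. They carried a control short hairpin RNA (sh-NC, 2 libraries) or a hairpin against IRF2BP2 (sh-IRF2BP2, 2 libraries), delivered by lentivirus with puromycin selection. Which of the study's IRF2BP2 hairpins was sequenced is not given in the sources used here. The mouse libraries were made from CD3+ T cells sorted with magnetic beads from spleen, either of Irf2bp2 knockout mice of the genotype Vav-iCre+/-;Irf2bp2fl/fl (2 libraries) or of controls (3 libraries). The mice were killed at 6 weeks of age. The labels call the controls wild type, whereas the paper gives them as Vav-iCre-/-;Irf2bp2fl/fl, with the same floxed alleles and no Cre. The Vav promoter drives Cre throughout the blood lineage, so the deletion was not restricted to T cells. Nothing in the labels says that libraries of a group came from separate cultures, and p-values measure the spread between these libraries, which may be technical.

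Cytotoxic T cells and natural killer (NK) cells kill by releasing granules at the contact with a target cell. Perforin, encoded by PRF1, opens the target membrane, and granzymes are serine proteases that enter through it. The T-box transcription factors EOMES and T-bet (TBX21) are known for driving this program in activated CD8+ T cells and NK cells, with EOMES linked more to memory and T-bet more to terminal effector cells. ZEB2 is a zinc-finger repressor known to act with T-bet in terminal effector cells, NKG7 is a granule membrane protein, and CTSW (cathepsin W) is a papain-like cysteine protease of cytotoxic lymphocytes.

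The promoters of 3 mouse genes are shown because Gzmk and Gzmb were called higher in mouse T cells and Gzma lies next to Gzmk. Each window holds the 250 bases before the transcription start, 5′ to 3′ on the strand of the gene. They are RefSeq sequences of GRCm38.p6. Human windows, which were only searched, lie before the start of the GENCODE 44 canonical transcript in hg38. Capitals mark matches on either strand to GGTGTGA, the core of a T-box site, TGTGGT, a RUNX site, and AGGAAG, an ETS site. The T-box and RUNX words can share bases, but no printed matches overlap. The windows are chr13:113180966-113181215 (minus strand) for Gzmk, chr13:113100982-113101231 (minus strand) for Gzma and chr14:56262335-56262584 (minus strand) for Gzmb.
Gzmk: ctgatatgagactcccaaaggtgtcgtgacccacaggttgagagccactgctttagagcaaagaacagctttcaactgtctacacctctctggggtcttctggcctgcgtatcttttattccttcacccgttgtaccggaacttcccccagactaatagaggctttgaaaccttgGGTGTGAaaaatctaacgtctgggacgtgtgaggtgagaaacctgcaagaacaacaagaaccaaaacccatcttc
Gzma: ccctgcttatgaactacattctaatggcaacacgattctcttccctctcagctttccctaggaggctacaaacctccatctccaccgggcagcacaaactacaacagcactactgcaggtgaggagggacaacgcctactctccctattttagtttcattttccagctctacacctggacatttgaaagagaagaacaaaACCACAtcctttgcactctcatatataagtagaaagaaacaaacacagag
Gzmb: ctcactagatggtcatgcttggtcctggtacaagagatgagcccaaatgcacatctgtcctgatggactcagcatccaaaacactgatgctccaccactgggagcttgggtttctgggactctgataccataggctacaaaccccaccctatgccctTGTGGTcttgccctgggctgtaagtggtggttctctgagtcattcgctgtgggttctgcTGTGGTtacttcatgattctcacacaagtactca

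The Gzmk window held a T-box match from -75 to -69, counted from the start, whereas the Gzmb window held RUNX matches from -93 to -88 and from -34 to -29, and that of Gzma held a RUNX match from -50 to -45. Windows with a T-box match belonged, counted per gene, to 3 of the 10 human genes (GZMK, GZMM and CTSW), where 2.59% of 20020 human windows of this length held it. In mouse they belonged to 3 of the 9 genes in the RefSeq table (Gzmk, Nkg7 and 1 of the starts of Gzmm), where 3.33% of 32851 windows held it. A RUNX match was found for 4 of 10 human and 5 of 9 mouse genes, beside 8.87% and 14.0% of all windows, and an ETS match for 5 of 10 and 5 of 9, beside 28.0% and 29.5%. The mouse table had no entry for Ctsw, 2 starts for Gzmm and 4 for Zeb2. A gene counted when any of its windows matched, whereas the shares are of single windows, which raises the mouse gene counts beside them. These matches are descriptions of letters, and binding was not measured here.

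Total counts per library lay between 26648204 and 31120236 in J.gamma1 cells and between 16668577 and 37177523 in mouse T cells, where control replicate 3 was the shallowest. Levels are in CPM, counts scaled to a common library size. The 3 counts that a value of 0 allows correspond to 0.116 CPM in the shallowest J.gamma1 library, and such limits cover counting error only. IRF2BP2 fell from 202 ± 4.04 CPM (SD, n = 2) with sh-NC to 86.4 ± 10.5 CPM (SD, n = 2) with sh-IRF2BP2. Mouse Irf2bp2 had 4145, 4594 and 1915 counts in the controls and 0 in both knockout libraries, which is at least 2939-fold lower when the floor is 3 counts over the group. Changes are given as fitted log2 ratios of knockdown to sh-NC or of knockout to control. A gene is called when the quasi-likelihood test of edgeR gave a Benjamini-Hochberg adjusted p below 0.05 and its log2 change reached 0.5 in either direction in J.gamma1 cells, or 1 in mouse T cells.

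The first comparison asks what happened to these genes when IRF2BP2 was reduced in T-ALL cells. In J.gamma1 cells, EOMES was about 10-fold higher after knockdown, CTSW, PRF1 and NKG7 were also higher, GZMA was lower, and TBX21, GZMB, GZMK and ZEB2 were at about 1 CPM or less in all libraries. Of the 8 genes that passed the filter, 4 were called higher and 1 lower, beside 5.46% and 5.01% of all genes tested (10.5% in either direction). The groups did not overlap for 7 of the 8, beside 58.3% of all genes. Over the 8, the median log2 change was 0.87, beside 0.0067 over all genes. Since the genes were chosen on this comparison, nothing is read from these counts, and a gene that passed the filter only through its higher group had to differ.

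EOMES (ENSG00000163508, hg38 chromosome 3, 27715949 to 27722711, minus strand) had 306 and 350 counts with sh-NC and 3247 and 3494 with sh-IRF2BP2. These are 11.8 and 11.3 CPM against 112 and 119 CPM. Both knockdown libraries were far above both control libraries, and libraries of a group lay close together. The means were 11.5 ± 0.380 and 115 ± 4.96 CPM (SD, n = 2 each), which gave a fitted log2 change of 3.32 ± 0.128 (SE), which ranked 28 from the top among all genes tested. It lay between 3.27 and 3.34 when each library was left out. SLC4A7, a bicarbonate transporter gene, was the sole tested gene within 250 kb of EOMES, with 192 ± 16.4 and 162 ± 19.9 CPM and a log2 change of -0.24 (edgeR adjusted p = 0.29). TBX21 (ENSG00000073861, chromosome 17), the other T-box gene of the group, had 26 and 27 counts with sh-NC and 17 and 21 with sh-IRF2BP2. It was low in all 4 libraries and did not share the direction of EOMES, with a fitted log2 change of -0.53 ± 0.479 (SE).

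**Figure D1:**
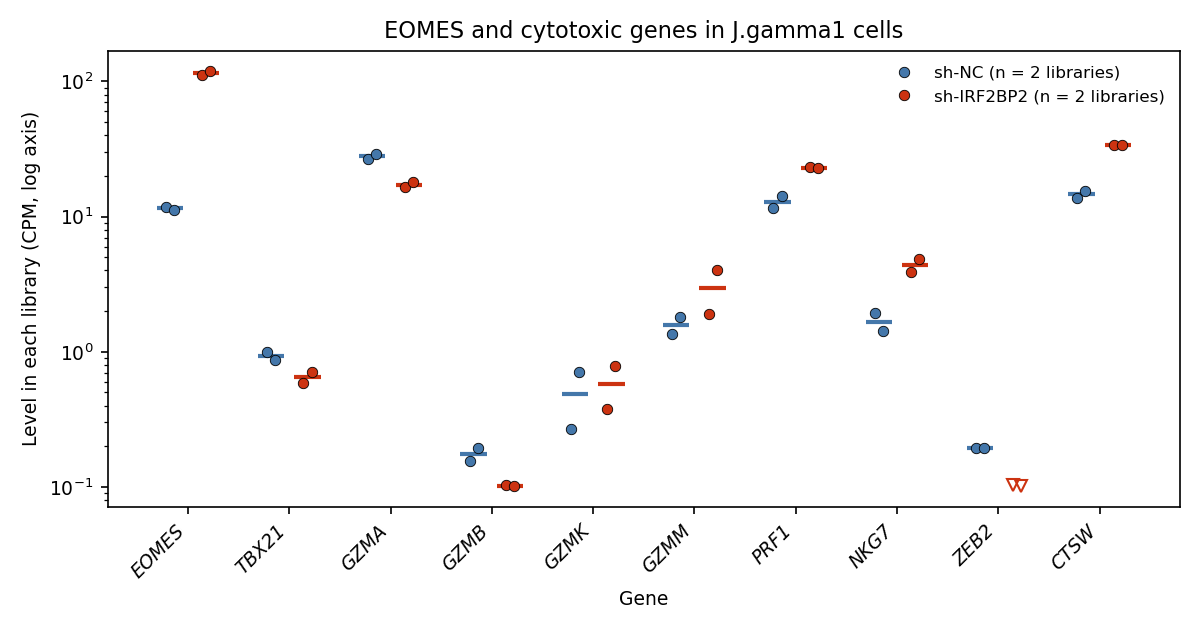
Level of each gene in each J.gamma1 library, in CPM on a log axis, with sh-NC in blue and sh-IRF2BP2 in red (n = 2 libraries each). Points are libraries, bars are group means, and open triangles mark libraries at 0 counts, drawn at the level of 3 counts. EOMES had means of 11.5 and 115 CPM, CTSW, PRF1 and NKG7 were higher in both knockdown libraries, and GZMA was lower in both.

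Among the genes of the granule, CTSW (ENSG00000172543, chromosome 11, 65879809 to 65883741, plus strand) had 354 and 482 counts with sh-NC and 989 and 995 with sh-IRF2BP2. Its level was 14.6 ± 1.32 against 33.9 ± 0.151 CPM (SD, n = 2 each), which gave a fitted log2 change of 1.21 ± 0.147 (SE). Its last 2 bases overlap those of FIBP on the other strand, and FIBP had a log2 change of -0.03. PRF1 (ENSG00000180644, chromosome 10, 70597348 to 70602759, minus strand) had 302 and 439 counts with sh-NC and 682 and 670 with sh-IRF2BP2, or 12.9 ± 1.76 and 23.1 ± 0.491 CPM (SD, n = 2 each), which gave a fitted log2 change of 0.84 ± 0.170 (SE). PRF1 lies within the span of PALD1 on the opposite strand, and 197 of its 2518 exon bases are also exon bases of PALD1. The kit does not mark strand, and reads in these bases cannot be told apart. PALD1, a phosphatase-domain gene, went the other way, with 624 and 628 counts against 231 and 222 (log2 change -1.52).

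NKG7 (ENSG00000105374, chromosome 19) had 50 and 44 counts with sh-NC and 114 and 143 with sh-IRF2BP2, or 1.67 ± 0.363 and 4.38 ± 0.662 CPM (SD, n = 2 each), which gave a fitted log2 change of 1.39 ± 0.325 (SE). Both knockdown libraries were above both controls, at a low level. The 5 genes called became 2, EOMES and CTSW, when either sh-IRF2BP2 library was left out, and 4, without NKG7, when sh-NC replicate 2 was left out. As with the counts above, this describes genes chosen on this comparison.

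Of the granzymes, GZMA (ENSG00000145649, chromosome 5, 55102646 to 55110252, plus strand) had the highest level per kilobase of exon in both groups. It had 694 and 900 counts with sh-NC and 480 and 531 with sh-IRF2BP2. Its level was 27.9 ± 1.56 against 17.2 ± 1.08 CPM (SD, n = 2 each), so that it was lower in both knockdown libraries, with a fitted log2 change of -0.69 ± 0.148 (SE). GZMK (ENSG00000113088), whose gene lies 68.1 kb from GZMA with no protein-coding gene between them, had 7 and 22 counts with sh-NC and 11 and 23 with sh-IRF2BP2, and the groups overlapped. Its fitted log2 change of 0.22 turned to -0.29 without sh-NC replicate 1 and to -0.39 without sh-IRF2BP2 replicate 2, and was 1.08 without sh-NC replicate 2, so that no direction is given. GZMM (ENSG00000197540, chromosome 19), a granzyme known from NK cells, had 35 and 56 counts with sh-NC and 55 and 118 with sh-IRF2BP2. Its fitted log2 change of 0.90 ± 0.438 (SE) fell to 0.25 without sh-IRF2BP2 replicate 2, which held the highest value. GZMB (ENSG00000100453, chromosome 14) had 4 and 6 counts against 3 and 3, which leaves no difference that this depth could show. ZEB2 (ENSG00000169554, chromosome 2) had 5 and 6 counts with sh-NC and 0 in both sh-IRF2BP2 libraries. This is 3.77-fold lower when the floor is 3 counts over the group. That value leaves out the counting error of the few sh-NC counts, so it is not a firm lower limit.

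Per kilobase of exon, the order of the levels changed. With sh-NC it was led by GZMA (31.1 CPM per kb), followed by CTSW (8.07), PRF1 (5.13), EOMES (3.16), NKG7 (1.82) and GZMM (1.67). NKG7 and GZMM did not differ beyond the spread of their libraries, nor did TBX21 (0.357) and GZMK (0.313). With sh-IRF2BP2, EOMES came first at 31.5 ± 1.36 CPM per kb (SD, n = 2), above GZMA at 19.3 ± 1.21 and CTSW at 18.7 ± 0.0833, which overlapped. Among all genes tested, 43.8% lay below EOMES per kilobase with sh-NC and 91.6% with sh-IRF2BP2. The 5 genes whose pattern over the 4 libraries was most like that of EOMES, by the root mean square difference of log2 CPM centred on the mean, were AHNAK (0.38), IL26 (0.43), FLT3LG (0.55), TRIB2 (0.59) and RORA (0.62), among 9754 genes of at least 10 CPM. All 5 were higher in both knockdown libraries, which the choice by likeness to EOMES had fixed.

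Other genes of cytotoxic cells in J.gamma1 cells were taken from lists. The calls in each list stand beside 5.46% of all genes called higher and 5.01% called lower. GZMH, the remaining granzyme, had 24 and 41 counts against 44 and 27. Of 9 tested genes of granule content and death ligands, 1 was called higher and 1 lower: LAMP2, a lysosome membrane protein (log2 change 0.62), and CALR, a calcium-binding chaperone (-0.84). Of 11 tested genes of the exocytosis machinery, UNC13D, which primes granules for fusion, was higher (0.54), whereas RAB7A (-1.18), VAMP7 (-1.18) and RAB27A (-0.57), which act in vesicle traffic, were lower. IFNG, the effector cytokine interferon gamma, had 0 and 0 counts with sh-NC and 13 and 12 with sh-IRF2BP2. It passed the filter only through the knockdown libraries, and its edgeR call, which DESeq2 did not make, is not read as a result. CCL3, CCL4 and CSF2 were at 0 counts in all 4 libraries, and TNF had 1 and 1 against 3 and 3.

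Of 20 tested regulators of effector and memory cells, 10 were called higher and 0 lower, beside 5.46% and 5.01% of all genes tested. At an unadjusted p under 0.05 in edgeR there were 12, and DESeq2 called the same 10. Of the 20, 19 lay above 0, and their median log2 change was 0.83, beside 0.0067 over all genes. The lists were chosen with earlier results of these data known, so these counts are a description. The largest was that of ID2, an inhibitor of helix-loop-helix factors with 2.25 ± 0.458 CPM under sh-NC and 9.72 ± 3.05 CPM under sh-IRF2BP2 (SD, n = 2 each), followed by IL2RB (1.64), the beta chain shared by the IL2 and IL15 receptors, ID3 (1.62) and STAT4 (1.55), which carries the IL12 signal. The list joins regulators of effector cells with those of naive and memory cells, and both kinds were among the 10, with PRDM1 (1.38) of the first, and BACH2 (1.27), FOXO1 (1.26), KLF2 (1.16) and TCF7 (0.58) of the second. TCF7 had 517 ± 21.6 and 771 ± 39.5 CPM (SD, n = 2 each). BHLHE40, which was not called, had 129 and 1519 counts with sh-NC and 143 and 2414 with sh-IRF2BP2, so that it differed by replicate number more than by group.

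No other T-box gene was called among 4 tested in edgeR (1 at an unadjusted p under 0.05), 7 were at 0 counts in all libraries, and DESeq2 called MGA higher (edgeR log2 change 0.58). Of 7 tested NK cell receptors, NCAM1 was called higher (58 and 86 counts against 212 and 195, log2 change 1.47). KLRD1 had 2 and 10 counts against 24 and 37. It was not called and passed the filter only through the knockdown libraries, so its change is not read as a result. The NK markers NCR1 and TYROBP and the receptor gene KLRK1 were at 0 counts in all 4 libraries. The 6 NK markers summed to between 2.39 and 3.38 CPM with sh-NC and to 8.35 CPM in both knockdown libraries. Most of this was NCAM1, with 2.24 and 2.77 CPM under sh-NC and 7.28 and 6.62 CPM under sh-IRF2BP2. The sum is not read as a change of the whole list. None of 8 tested cysteine cathepsins other than CTSW was called by edgeR or DESeq2 (1 at an unadjusted p under 0.05 in edgeR). The T cell markers were present, with a summed level of 1537 to 1709 CPM with sh-NC and 1477 to 1598 CPM with sh-IRF2BP2. Of 12, CD28 (0.81) and TRAT1 (0.66) were higher and CD3D (-0.79) was lower. Of 4 tested naive and memory surface markers, S1PR1 (1.42) was called higher and IL7R (-1.06) was among those called lower. Among markers of other cells, CD79A of 3 B cell genes and MZB1 of 3 plasma cell genes were lower, and the 1 tested myeloid gene was not called. HBA2, an erythroid gene, had 4 and 6 counts with sh-NC and 26 and 25 with sh-IRF2BP2 and passed the filter only through the knockdown libraries. DESeq2 called 0 of 4 erythroid genes, and the edgeR call of HBA2 is not read as a result. Over all these lists 27 genes were called by edgeR, IFNG and HBA2 included, and 16 were without sh-IRF2BP2 replicate 1.

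The second comparison asks whether the same genes differed in normal T cells that lack Irf2bp2. In knockout splenic T cells, Gzmk was 10.6-fold and Gzmb 5.60-fold higher, Eomes, Tbx21, Nkg7, Prf1 and Gzmm did not pass the test, and Ctsw was lower by a fold just short of the threshold. Of the 10 genes tested, 2 were called higher and 0 lower (5 at an unadjusted p under 0.05 in edgeR), beside 2.47% and 0.111% of all genes (2.58% in either direction). With Ctsw, 3 had an adjusted p under 0.05 at any fold, beside 2.83% of all genes. The groups did not overlap for 6 of the 10, beside 36.0% of all genes. Their median log2 change was 0.11, beside -0.018 over all genes. In such bulk libraries, fewer cells of a type and less RNA per cell cannot be told apart. The summed T cell markers were lower and the summed erythroid markers higher in both knockout libraries than in all controls, with the values given below.

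Gzmk (ENSMUSG00000042385, mm10 chromosome 13, 113171608 to 113225908, minus strand) encodes granzyme K, known from memory-like and aged CD8+ T cells. It had 306, 133 and 66 counts in the controls and 2252 and 1951 in the knockout libraries. In CPM these are 8.26, 3.68 and 4.13 against 58.8 and 54.9. Both knockout libraries were far above all controls, and the level of Gzmk per kilobase of exon was 3.86 CPM per kb in the controls and 40.9 CPM per kb in the knockout. Its fitted log2 change was 3.39 ± 0.351 (SE), with an adjusted p of 0.0100 in edgeR. The call was kept when any single control library was left out. Without either knockout library its log2 change was 3.33 or 3.42, with edgeR adjusted p-values of 0.055 and 0.088.

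Esm1, which encodes the secreted proteoglycan endocan, lies within the annotated span of Gzmk on the opposite strand, and the exons of the genes share 0 bases. The RefSeq start of Gzmk, before which the window above lies, leaves Esm1 upstream of that gene. Esm1 had 16, 11 and 2 counts in the controls and 231 and 319 in the knockout libraries, a log2 change of 4.60 (edgeR adjusted p = 0.0100). Both genes were far higher in both knockout libraries.

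Gzmb (ENSMUSG00000015437, chromosome 14, 56258838 to 56262260, minus strand) encodes granzyme B, the protease that starts caspase activation in target cells. It had 339, 424 and 79 counts in the controls and 1550 and 1989 in the knockout libraries. The levels were 9.15, 11.7 and 4.94 CPM against 40.5 and 56.0 CPM, without overlap. The fitted log2 change was 2.47 ± 0.346 (SE), with an adjusted p of 0.0196 in edgeR. It moved by less than its standard error when any single library was left out, but the call was lost without control replicate 1 (edgeR adjusted p = 0.11), knockout replicate 1 (0.072) or knockout replicate 2 (0.16).

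Gzma (ENSMUSG00000023132, chromosome 13, 113093825 to 113100981, minus strand), 70.6 kb from Gzmk, had 932, 900 and 149 counts in the controls and 1388 and 4075 in the knockout libraries. The levels of 25.2, 24.9 and 9.32 CPM lay below those of 36.2 and 115 CPM, but the knockout libraries differed strongly from each other. Its fitted log2 change of 1.92 ± 0.558 (SE) did not pass the test (edgeR adjusted p = 0.155), and it was 0.84 without knockout replicate 2. Gzmm (ENSMUSG00000054206, chromosome 10) had 8.34, 5.12 and 6.69 CPM in the controls and 5.38 and 6.06 CPM in the knockout, with overlapping groups (log2 change -0.23, edgeR adjusted p = 0.77).

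**Figure D2:**
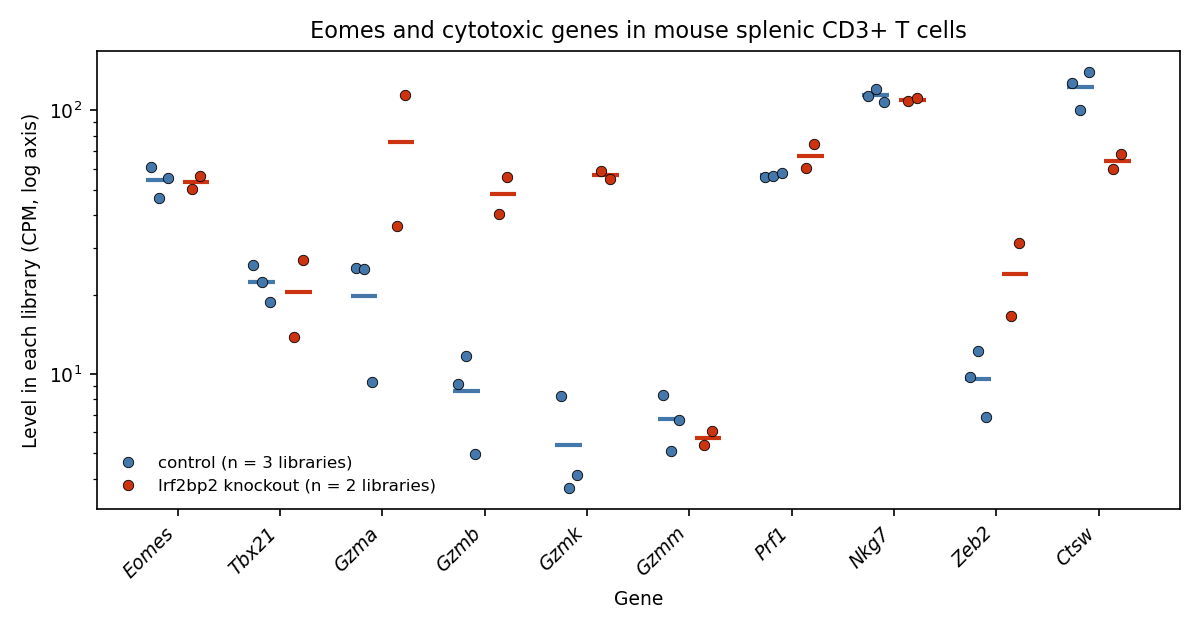
Level of each gene in each mouse library, in CPM on a log axis, with controls in blue (n = 3 libraries) and Irf2bp2 knockout in red (n = 2 libraries). Points are libraries and bars are group means. Gzmk and Gzmb were higher in both knockout libraries, Ctsw was lower in both, and the libraries of Eomes, Tbx21, Gzmm and Nkg7 overlapped.

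Eomes (ENSMUSG00000032446, chromosome 9, 118478212 to 118486132, plus strand) had 2267, 1683 and 886 counts in the controls and 1924 and 2000 in the knockout libraries. Its level was 54.4 ± 7.38 CPM (SD, n = 3) against 53.3 ± 4.31 CPM (SD, n = 2), and the groups overlapped fully. The log2 change was -0.03, with a 95% interval from -0.40 to 0.34 (edgeR adjusted p = 0.956). The interval does not hold a change of the size seen in J.gamma1 cells. Its neighbours Golga4 (0.13) and Itga9 (-0.28) did not pass the test either. The genes most like Eomes over the 5 libraries were Ccdc91 (root mean square difference 0.019), Itfg2 (0.034), Pan2 (0.036), Rsph3a (0.037) and Ms4a6b (0.037), among 9099 genes. As Eomes changed little, this choice favours genes of little change, and nothing is read from it. Tbx21 (ENSMUSG00000001444, chromosome 11) had 25.9, 22.3 and 18.7 CPM in the controls, and the knockout libraries, at 13.8 and 27.2 CPM, lay on either side of them. Its log2 change was -0.13, with a 95% interval from -0.86 to 0.60 (edgeR adjusted p = 0.89).

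Zeb2 (ENSMUSG00000026872, chromosome 2, 44983632 to 45117395, minus strand) had 9.72, 12.2 and 6.88 CPM in the controls and 16.6 and 31.3 CPM in the knockout, where replicate 2 was the higher. The groups did not overlap, and the fitted log2 change was 1.31 ± 0.342 (SE), with an adjusted p of 0.116 in edgeR, or 0.76 without knockout replicate 2. DESeq2 called it higher (log2 change 1.32, adjusted p = 0.00798). Zeb2os, an antisense RNA near its start that shares 653 exon bases with it, had 15, 32 and 1 counts in the controls and 30 and 33 in the knockout.

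Prf1 (ENSMUSG00000037202, chromosome 10) had 56.0, 56.2 and 58.0 CPM in the controls and 60.4 and 74.3 CPM in the knockout. Both knockout libraries were above the controls, by a log2 change of 0.25 with a 95% interval from -0.073 to 0.57 (edgeR adjusted p = 0.44). It was 0.068 without knockout replicate 2 and 0.37 without knockout replicate 1. Nkg7 (ENSMUSG00000004612, chromosome 7), the most abundant of the 10 per kilobase in both groups (125 and 120 CPM per kb), had 114, 120 and 108 CPM in the controls and 108 and 111 CPM in the knockout. The groups overlapped, with a log2 change of -0.05 and a 95% interval from -0.33 to 0.23 (edgeR adjusted p = 0.88).

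Ctsw (ENSMUSG00000024910, chromosome 19, 5465043 to 5468507, minus strand) had 4710, 3629 and 2242 counts in the controls and 2294 and 2432 in the knockout libraries. Scaled by library size, these are 127, 100 and 140 CPM against 59.9 and 68.5 CPM, so that both knockout libraries were below all controls. The fitted log2 change was -0.93 ± 0.176 (SE), with an adjusted p of 0.0477 in edgeR, short of the threshold of 1. It passed both thresholds without control replicate 2 (-1.04, edgeR adjusted p = 0.00883), and its adjusted p was 0.067 with the replicate number as a block and 0.0574 to 0.373 when any other single library was left out (edgeR). Fibp, which overlaps it by 9 bases, had a log2 change of -0.27.

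The plot of fitted log2 changes sets both comparisons side by side. EOMES had 3.32 in J.gamma1 cells and -0.03 in mouse T cells. CTSW had 1.21 and -0.93, GZMA had -0.69 and 1.92, and GZMK had 0.22, without a stable sign, and 3.39. NKG7 had 1.39 and -0.05, and GZMM had 0.90 and -0.23. PRF1 (0.84 and 0.25) and TBX21 (-0.53 and -0.13) had the same sign in both. Of the genes in these pairs, only Gzmk was called in mouse T cells. The tables come from different species and cell types and from a knockdown and a deletion, and the difference between the comparisons was not tested.

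**Figure D3:**
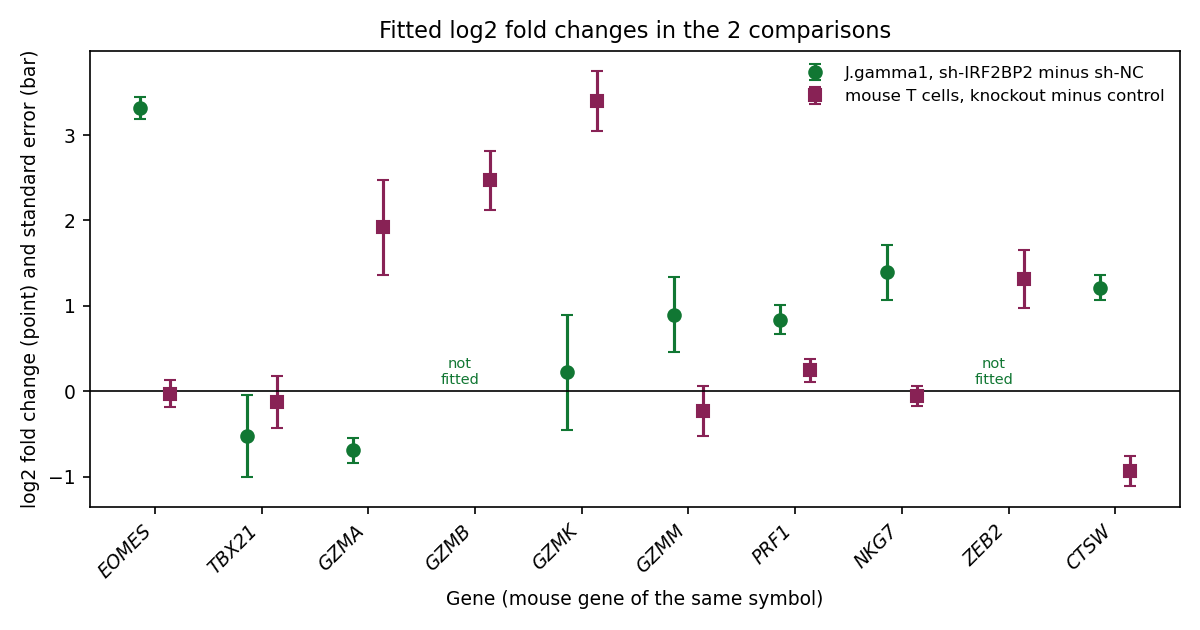
Fitted log2 change of each gene (point) with its standard error (bar), for J.gamma1 cells (green circles, sh-IRF2BP2 minus sh-NC) and mouse T cells (purple squares, knockout minus control). GZMB and ZEB2 were not fitted in J.gamma1 cells. EOMES is highest in J.gamma1 cells and near 0 in mouse T cells, whereas Gzmk and Gzmb are the highest in mouse T cells.

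Per kilobase of exon, the control order in mouse T cells was Nkg7 (125 CPM per kb), Ctsw (65.0), Prf1 (22.0), Gzma (19.7), Eomes (13.1), Tbx21 (8.97), Gzmb (5.99), Gzmm (4.56), Gzmk (3.86) and Zeb2 (0.481). Gzma overlapped Prf1, Eomes and Tbx21, and Tbx21, Gzmb, Gzmm and Gzmk each overlapped the next. In the knockout, Nkg7 was followed by Gzma (75.1), Gzmk (40.9), Ctsw (34.0), Gzmb (33.6) and Prf1 (26.1), and Eomes (12.8), Tbx21 (8.23), Gzmm (3.88) and Zeb2 (1.20) came last. The knockout libraries of Gzma spread from 36.0 to 114 CPM per kb and overlapped Gzmk, Ctsw and Gzmb, so that its place among these is not settled. Gzmb also overlapped Ctsw and Prf1.

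The other genes of cytotoxic cells in mouse T cells are given from the same lists. The calls in each list stand beside 2.47% of all genes called higher and 0.111% called lower. Of 7 tested effector cytokines and chemokines, Ccl4 and Ccl5, chemokines released by activated CD8+ T cells, were called higher. Ccl4 had 50, 97 and 27 counts in the controls and 357 and 345 in the knockout libraries (log2 change 2.31, edgeR adjusted p = 0.025). Ccl5 had 85.9 ± 8.88 CPM (SD, n = 3) and 222 ± 66.0 CPM (SD, n = 2), a log2 change of 1.37 (edgeR adjusted p = 0.022). Ifng had 102, 77 and 76 counts against 314 and 466, without overlap (log2 change 1.75, edgeR adjusted p = 0.086).

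Of 13 tested NK cell receptors, Klrg1, a receptor of terminal effector cells, was called higher, at 3.37 ± 1.41 CPM (SD, n = 3) against 15.6 ± 4.99 CPM (SD, n = 2), a log2 change of 2.19 (edgeR adjusted p = 0.0465). S1pr5 and Cx3cr1, also known from terminal effector and NK cells, were high in knockout replicate 2 alone, at 19.0 and 34.3 CPM against 2.53 and 7.62 CPM in knockout replicate 1. Knockout replicate 2 was likewise the higher of the pair for Gzma, Zeb2, Klrg1 and Tbx21. Of 11 tested genes of the exocytosis machinery, Stx11, a syntaxin needed for granule release, was called higher (9.05 ± 1.25 CPM, n = 3, against 19.6 ± 1.36 CPM, n = 2, log2 change 1.11). None of 11 tested genes of granule content and death ligands was called by edgeR or DESeq2 (1 at an unadjusted p under 0.05 in edgeR). Gzmc had at most 0.501 CPM in any library, and Gzmd, Gzme, Gzmf, Gzmg and Gzmn were at 0 counts in all 5.

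Of 24 tested regulators of effector and memory cells, 2 were called higher and 0 lower (9 at an unadjusted p under 0.05, and 3 higher with DESeq2), and the median log2 change of the 24 was 0.017. They were Bhlhe40, a helix-loop-helix repressor that supports cytokine production (1.92), and Prdm1, which encodes Blimp-1 (1.42). Prdm1 was at 10.9 ± 2.82 CPM (SD, n = 3) and 29.3 ± 1.28 CPM (SD, n = 2), and PRDM1 was also among those called higher in J.gamma1 cells. None of 4 other T-box genes (0 at an unadjusted p under 0.05) and none of 9 other cysteine cathepsins (1 at an unadjusted p under 0.05) was called by edgeR or DESeq2. Of these cathepsins, 8 had a log2 change below 0, with a median of -0.25 over the 9, and nothing is read from this. Over all lists in mouse T cells 10 genes were called, the 4 erythroid genes given below included, and 0 were without control replicate 1 or without knockout replicate 2.

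The summed T cell and erythroid markers did not overlap between the mouse groups, whereas the sums of NK, B cell, plasma cell and myeloid markers did. The 12 T cell markers were present in all 5 libraries, summing to 4952 to 5492 CPM in the controls and to 3694 and 3949 CPM in the knockout. None was called by edgeR or DESeq2, 9 had an unadjusted p under 0.05 in edgeR, and 11 of 12 had a log2 change below 0 (median -0.45). Cd8b1 had -0.94 (edgeR adjusted p = 0.021), Cd8a had -0.60 (edgeR adjusted p = 0.068) and Cd4 had -0.07. The share of CD8+ cells in these libraries was not tested. By flow cytometry, the paper reports that knockout and control spleens had similar percentages of CD8+ T cells. Of 6 naive and memory surface markers 0 were called by edgeR or DESeq2 (4 at an unadjusted p under 0.05 in edgeR), with Ccr7 at -0.53 and Cd44 at 0.45.

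The 8 NK cell markers summed to 88.1 to 169 CPM in the controls and to 70.2 and 94.5 CPM in the knockout, with a median log2 change of -0.87. None was called by edgeR (4 at an unadjusted p under 0.05), and DESeq2 called 2 others than Ncr1 lower. Ncr1 had 115, 124 and 9 counts in the controls and 14 and 22 in the knockout, with overlapping groups (edgeR adjusted p = 0.23). The 9 erythroid markers summed to 500 to 1905 CPM in the controls and to 3637 and 5092 CPM in the knockout, with a median of 2.48 and 4 called higher, among them Slc4a1, Klf1 and Gata1. B cell markers summed to 28.5 to 235 CPM against 26.2 and 83.0 CPM, plasma cell markers to 406 to 1142 CPM against 1114 and 1477 CPM, and myeloid markers to 40.5 to 402 CPM against 87.6 and 142 CPM. All 6 plasma cell markers had a log2 change above 0, with a median of 0.78. Of these 6, edgeR called 0 (3 at an unadjusted p under 0.05) and DESeq2 called 2 higher. The part of all these cell types in the levels of Gzmk, Gzmb, Ctsw and Prdm1 was not tested.

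**Figure D4:**
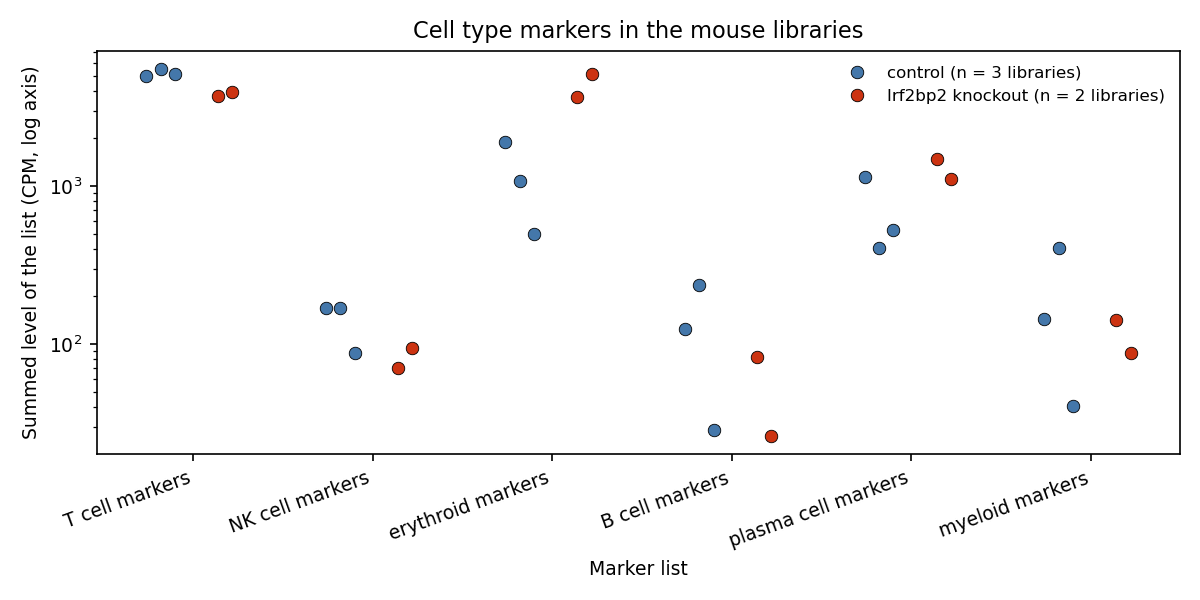
Summed level of each marker list in each mouse library, in CPM on a log axis, with controls in blue (n = 3 libraries) and Irf2bp2 knockout in red (n = 2 libraries). Points are libraries. T cell markers were lower and erythroid markers higher in both knockout libraries, whereas NK, B cell, plasma cell and myeloid markers overlapped between the groups.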

How the data were processed

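Gene counts from RNA-seq were analysed for 4 J.gamma1 libraries and for 5 libraries of mouse CD3+ splenic T cells. TruSeq libraries were made from total RNA with a kit that does not mark strand. Per the submitters' processing notes, reads were aligned with HISAT2 2.2.0, to hg38 or mm10, and quantified with StringTie. The deposited values are the raw counts of the authors, whole numbers for each gene and library, neither normalized nor pooled. The annotation release, the use of strand in counting and the conversion to counts are not given in the sources used here, and counts divided by 2 were tried as an alternative for the last.

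Rows in GENCODE 44 or M21 were kept (97.9% to 99.8% of counts), passed through filterByExpr, and fitted with glmQLFit and glmQLFTest of edgeR 4.0.16 in R 4.3.3 on TMM-normalized libraries, with the group as sole term. DESeq2 1.42.0, the tool of the study, was an alternative. CPM used TMM-scaled library sizes, and levels per kilobase the union exon length. Replicates differed by more than sampling noise (chi-square per gene at least 18.2), and each library counted as 1 replicate. Promoter windows were scanned in Python 3.11.15.

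The genes and lists were chosen with earlier results of these data known. Named in the text are the 10 genes, the targeted gene, up to 4 called genes of each list and table with the largest changes, defining genes near 0, the 5 genes most like EOMES, and genes that overlap one of the 10 or lie within 250 kb of EOMES. Genes named beyond these (such as further called regulators in J.gamma1 cells, Cd8a, Cd8b1, S1pr5, Cx3cr1, Ifng and KLRD1) were chosen after their values were seen. Alternatives were scaling by RLE or by the upper quartile, a filter of 1 count anywhere or of 10 counts in every library, all rows, other fold thresholds, a replicate block and each library left out. The scripts were tested on simulated counts. Some items of these lists and windows are not reported here.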

Additional observations from a re-analysis of the deposited data

How the results depend on the processing

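The J.gamma1 counts of 864 genes higher and 793 lower became 319 and 396, with 2 of the 10 genes called (EOMES and CTSW), under a filter of 1 count in any library. At a log2 fold threshold of 1 they became 262 and 318, with 3 of the 10 genes and 17 list genes called. With each library left out they ranged from 418 to 1608 and from 419 to 1143, with 2 to 5 of the 10 genes and 16 to 29 list genes, beside 27 with all libraries. The largest counts came without sh-NC replicate 1, and the smallest without either sh-IRF2BP2 library. The mouse counts of 379 higher and 17 lower became 755 and 71 with DESeq2, with 18 list genes called in place of 10. Leaving out each mouse library gave 6 to 532 higher, 1 to 35 lower, 0 to 3 of the 10 genes and 0 to 12 list genes. The fewest genes were called without control replicate 1 (6 higher) and without knockout replicate 2 (9 higher), and 0 of the 10 genes was called without either knockout library. Leaving out 1 of a pair leaves a lone library, which is assumed to vary like the others.

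With a replicate block, 35 mouse genes were lower, 407 were higher, and the calls of the 10 genes were the same. Same-numbered libraries deviated with correlations of 0.225 in J.gamma1 cells and of 0.151 and -0.161 in mouse T cells, and neither the labels nor 3 or more pairs tie them, so the numbers are not taken as pairs. In J.gamma1 cells the replicate block gave 1293 genes higher, 1174 lower, the same 5 of the 10 genes and 33 list genes. The sign of the mouse Eomes change turned to 0.016 under the filter of 10 counts and ranged from -0.14 to 0.073 with a library left out (above 0 without control replicate 1 or knockout replicate 1). That of Tbx21 ranged from -0.72 to 0.26 (above 0 without knockout replicate 1) and that of Nkg7 from -0.098 to 0.0038 (above 0 without control replicate 2). GZMK in J.gamma1 cells ranged from -0.39 to 1.08. No scaling changed the direction of any of the 10 genes. Low counts limit TBX21, GZMB, GZMK and ZEB2 in J.gamma1 cells, and control replicate 3 was sequenced least in mouse. The cause of these changes was not tested.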
